A study of Homo sapiens with 12 samples.

Results

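Expression of 31 genes that make, regulate or move cholesterol and fatty acids was measured in SNU308 cells, a human gallbladder cancer (GBC) line, after siRNA knockdown of the cell surface glycoprotein CEACAM6. The genes were chosen by name, with earlier results of these data known. The list held 5 regulators of the sterol response and 1 sterol transport gene. Its enzymes were 7 of the mevalonate steps, 11 of the squalene and sterol steps and 7 of the fatty acid steps. All 31, of 60617 genes in the deposited values, were among the 17620 genes that passed the expression filter. Every group of cells received siRNA at 25 nM and was profiled at day 3: 4 samples with a non-targeting control siRNA (NTC), 4 with siCEACAM6#2 and 4 with siCEACAM6#3. All were bulk RNA-seq samples of 1 cell line, the NTC samples having been transfected as well, and no group without siRNA was analysed here. The labels do not tie a replicate number to a shared culture, so the p-values measure the spread between these samples, part of which may be technical. In bulk RNA, fewer expressing cells and less RNA per cell cannot be told apart.

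Cholesterol synthesis starts from acetyl-CoA, runs through mevalonate to farnesyl pyrophosphate and squalene, and ends with a series of ring modifications. Its enzymes, and those of fatty acid synthesis and desaturation, are classical targets of the sterol regulatory element binding proteins (SREBPs), which are encoded by SREBF1 and SREBF2. SCAP escorts the SREBP precursors from the endoplasmic reticulum to the Golgi, where they are cleaved and released to enter the nucleus, and the INSIG proteins hold SCAP back when sterols are plentiful. INSIG1 is itself an SREBP target, so its mRNA is often read as part of the sterol response.

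The siRNAs differ in the part of the CEACAM6 transcript that they target, and their target sequences, from the study's list of siRNAs, are shown because each effect below rests on 1 or both of them.
siCEACAM6#2: cagccatgcaatgccaaataa
siCEACAM6#3: ctcctaatagtcatactagta

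The promoters of the genes were read from RefSeq (GRCh38.p14) in windows from 250 bases before to 50 bases after each transcription start. The table held 37 windows for 27 of the 31 genes, and none for ACAT2, FDFT1, SQLE and FASN. A match on either strand to the core of the sterol regulatory element, TCACNNCAC, occurred in 1 of the 37 windows (2.70%), against 3.57% of all 35116 windows. That match was in the promoter of SREBF2, 133 bases before the start. The CCAAT box, which binds the SREBP partner NF-Y, was found in 24 of the 37 windows (64.9%), against 34.6% of all windows. The GC box GGGCGG, bound by SP1, was found in 33 of them (89.2%), against 45.0% of all windows. By gene, 20 of the 27 genes (74.1%) had a CCAAT box in some window and 26 of 27 (96.3%) a GC box, against 42.5% and 74.1% of the 12103 tested genes with a window. These matches are a description of the letters in the windows and are not binding data. The 250 bases before the start are shown for SREBF2, which held the only sterol element match among the 37 windows, for FDPS, which held 3 CCAAT boxes, and for DHCR7 and SC5D, which were called changed. These genes are examples. The windows of MVK, NSDHL and MSMO1 held more CCAAT boxes than that of FDPS. FADS2 was also called changed and is not shown, its CCAAT box beginning 5 bases after the start. Capitals mark the sterol element core and the CCAAT box on either strand (CCAAT or ATTGG).
SREBF2, chr22:41832855-41833104, plus strand: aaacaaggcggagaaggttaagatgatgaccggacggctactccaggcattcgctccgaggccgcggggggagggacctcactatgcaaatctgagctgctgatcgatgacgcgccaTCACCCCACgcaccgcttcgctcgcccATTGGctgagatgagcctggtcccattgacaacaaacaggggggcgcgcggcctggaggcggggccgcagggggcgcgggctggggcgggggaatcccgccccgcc
FDPS, chr1:155308616-155308865, plus strand: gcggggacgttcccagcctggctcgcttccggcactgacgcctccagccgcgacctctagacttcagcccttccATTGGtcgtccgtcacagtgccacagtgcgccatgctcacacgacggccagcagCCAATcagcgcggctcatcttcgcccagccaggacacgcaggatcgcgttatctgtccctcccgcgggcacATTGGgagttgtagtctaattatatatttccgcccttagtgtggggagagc
DHCR7, chr11:71448394-71448643, minus strand: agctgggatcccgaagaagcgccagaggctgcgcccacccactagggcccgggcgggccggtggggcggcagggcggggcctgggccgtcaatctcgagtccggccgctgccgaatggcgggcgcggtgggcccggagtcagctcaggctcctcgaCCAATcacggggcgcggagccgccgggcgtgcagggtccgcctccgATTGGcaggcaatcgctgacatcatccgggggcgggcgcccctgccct
SC5D, chr11:121292521-121292770, plus strand: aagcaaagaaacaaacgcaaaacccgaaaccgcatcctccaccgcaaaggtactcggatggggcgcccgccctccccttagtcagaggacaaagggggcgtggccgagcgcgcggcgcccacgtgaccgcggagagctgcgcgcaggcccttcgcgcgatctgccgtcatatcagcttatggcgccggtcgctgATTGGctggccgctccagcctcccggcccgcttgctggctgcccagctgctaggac
In FDPS the CCAAT boxes began 176, 122 and 51 bases before the start, and in the window shown of DHCR7 they began 94 and 48 bases before it. DHCR7 and SC5D had 2 windows each, and the one with the most CCAAT boxes was shown, at a tie the first by position.

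Among the libraries, siCEACAM6#3 replicate 4 stood apart in the leukocyte transcripts LYZ, PTPRC and CD3E, though not in CD68. Its estimated counts were 72 for LYZ, 20 for PTPRC and 9 for CD3E, against at most 10, 2 and 4 in the other 11 samples. For CD68, the more abundant leukocyte marker, it had 1013, within the 589 to 1147 of the other 11. The same library was the highest of its group for 14 of the 31 genes. Without it, 6 of the 31 genes were called by limma-voom with siCEACAM6#2, 1 with siCEACAM6#3 (DHCR7), 8 for both siRNAs and 1 between them (SC5D), out of 364, 47, 189 and 315 calls among 17888 tested genes. The median log2 change of the 31 genes was then -0.15 with siCEACAM6#2, -0.16 with siCEACAM6#3 and -0.15 for both. Beyond these values, its part in the results was not tested.

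The targeted gene was lowered by both siRNAs. CEACAM6 (ENSG00000086548, chromosome 19 at 41750977 to 41772211 in GRCh38) was at 524, 569, 596 and 619 CPM (counts scaled to library size with TMM factors) in the NTC samples. It was at 353, 343, 286 and 329 CPM with siCEACAM6#2 and at 423, 386, 424 and 438 CPM with siCEACAM6#3. Neither siRNA group overlapped the NTC samples. The log2 fold change by limma-voom, Benjamini-Hochberg adjusted over all tested genes, was -0.82 ± 0.07 (SE, adjusted p = 2.71e-05) with siCEACAM6#2 and -0.46 ± 0.07 (SE, adjusted p = 0.0151) with siCEACAM6#3. The two-sided exact permutation p was 0.0286 for each siRNA, the smallest that 4 samples against 4 allow. About 0.567 of the NTC level thus remained with siCEACAM6#2 and 0.725 with siCEACAM6#3, and the siRNAs differed by 0.35 ± 0.07 on the log2 scale (SE, adjusted p = 0.0160 by limma-voom). The call for siCEACAM6#3 against NTC did not hold when replicate 2, 3 or 4 of NTC or replicate 3 of siCEACAM6#3 was left out (adjusted p by limma-voom up to 0.0792), and that between the siRNAs was lost without replicate 3 of either siRNA (up to 0.0576).

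The pathway was well expressed in control cells, as compared by TPM, an abundance scaled for transcript length and depth. The median NTC level of the 31 genes was 42.7 TPM, against 8.44 TPM over all tested genes, and 5 genes exceeded 100 TPM. FDFT1, squalene synthase, was highest at 220 ± 8.36 TPM (SD, n = 4). It was followed by FDPS, which makes farnesyl pyrophosphate, at 176 ± 4.14 TPM, and by SCD, the stearoyl-CoA desaturase, at 153 ± 4.22 TPM. Fatty acid synthase, FASN, was at 123 ± 4.67 TPM and DHCR7 at 110 ± 4.45 TPM, and the ranges of these 5 genes over the NTC samples did not overlap with one another. Below them, neighbours in the order mostly overlapped, and over the whole order 20 of the 30 adjacent pairs had overlapping NTC ranges. The lowest were INSIG2 (11.6 ± 1.62 TPM), the lanosterol synthase gene LSS (11.3 ± 1.01 TPM) and HSD17B7 (8.24 ± 0.96 TPM). The lowest estimated count of any of the 31 genes in any sample was 125, for HSD17B7, so none of them was near the limit of detection.

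**Figure D1:**
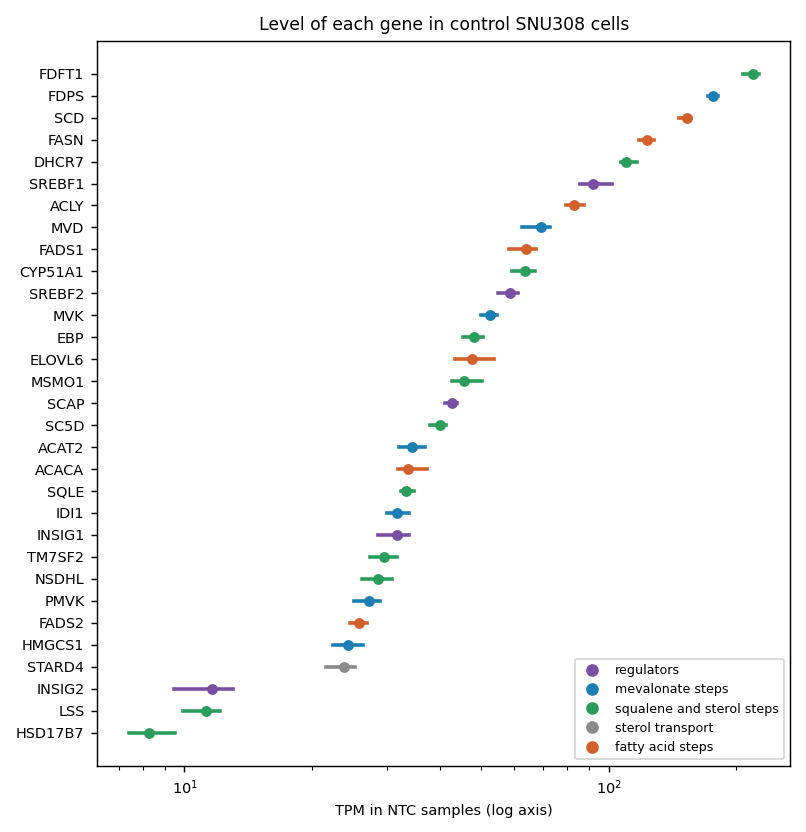
Level of each of the 31 genes in the 4 NTC samples, in TPM on a log axis, ordered from highest to lowest; points are means, bars run from the lowest to the highest sample, and colours give the gene group. FDFT1 (220 TPM) and FDPS (176 TPM) lead, and LSS (11.3 TPM) and HSD17B7 (8.24 TPM) are lowest, with both sterol and fatty acid enzymes spread over the range.

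With either siRNA most of the enzyme genes were lower than in NTC by a small margin, and few passed the test one by one. With siCEACAM6#2, 3 of the 31 genes were called lower and none higher (SC5D, FADS2 and DHCR7, all 3 at adjusted p under 0.05 by limma-voom). Over all tested genes 0.641% were called lower. With siCEACAM6#3 none of the 31 was called by limma-voom, and 16 had an unadjusted p under 0.05, all lower. Over all tested genes limma-voom called 0.017% lower with siCEACAM6#3, 3 genes in all. DESeq2 called 7 of the 31 with siCEACAM6#3, against 0.573% of all tested genes called lower by that tool. For the average of both siRNAs 1 gene, FADS2, was called lower, against 0.0908% of all genes.

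The 31 genes were also counted by looser measures. An unadjusted p under 0.05 with a lower level was found for 17 of 31 genes with siCEACAM6#2, against 7.12% of all tested genes, and for 16 with siCEACAM6#3, against 6.5%. The 4 siRNA samples were all below the 4 NTC samples for 17 genes with siCEACAM6#2, against 5.42% of all genes. This held for 10 genes with siCEACAM6#3, against 3.29%. All 8 siRNA samples were below all 4 NTC samples for 9 genes, HMGCS1, FDPS, SQLE, LSS, DHCR7, INSIG1, ACLY, SCD and FADS2, against 0.874% of all genes. The fitted change was below 0 for 28 genes with siCEACAM6#2, for 29 with siCEACAM6#3 and for 30 with the average of both, against 49.9%, 51.1% and 50.9% of all genes. Both comparisons use the same 4 NTC samples and are not independent of each other, and genes of 1 pathway are not independent replicates. The list was chosen with earlier results of these data known, so these shares are a description and not a test.

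The median log2 fold change of the 31 genes was -0.15 with siCEACAM6#2 and -0.14 with siCEACAM6#3, while that of all tested genes was 0.00 in both. Summed over the 11 squalene and sterol enzymes, the level was 966 ± 17.9 CPM in NTC, 843 ± 23.8 CPM with siCEACAM6#2 (87.2% of NTC) and 876 ± 30.9 CPM with siCEACAM6#3 (90.7%) (SD, n = 4). The 7 mevalonate enzymes together were at 416 ± 9.18 CPM in NTC, 365 ± 18.6 CPM with siCEACAM6#2 (87.6%) and 363 ± 28.4 CPM with siCEACAM6#3 (87.3%). The 7 fatty acid enzymes together were at 1963 ± 22.3 CPM in NTC, 1760 ± 91.9 CPM with siCEACAM6#2 (89.6%) and 1764 ± 72.0 CPM with siCEACAM6#3 (89.8%). A sum of CPM weighs abundant genes most and does not show that each gene fell. The most abundant were FDFT1 and DHCR7 in the sterol sum, FDPS in the mevalonate sum and FASN and SCD in the fatty acid sum. In each of these 3 sums every siRNA sample was below every NTC sample.

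**Figure D2:**
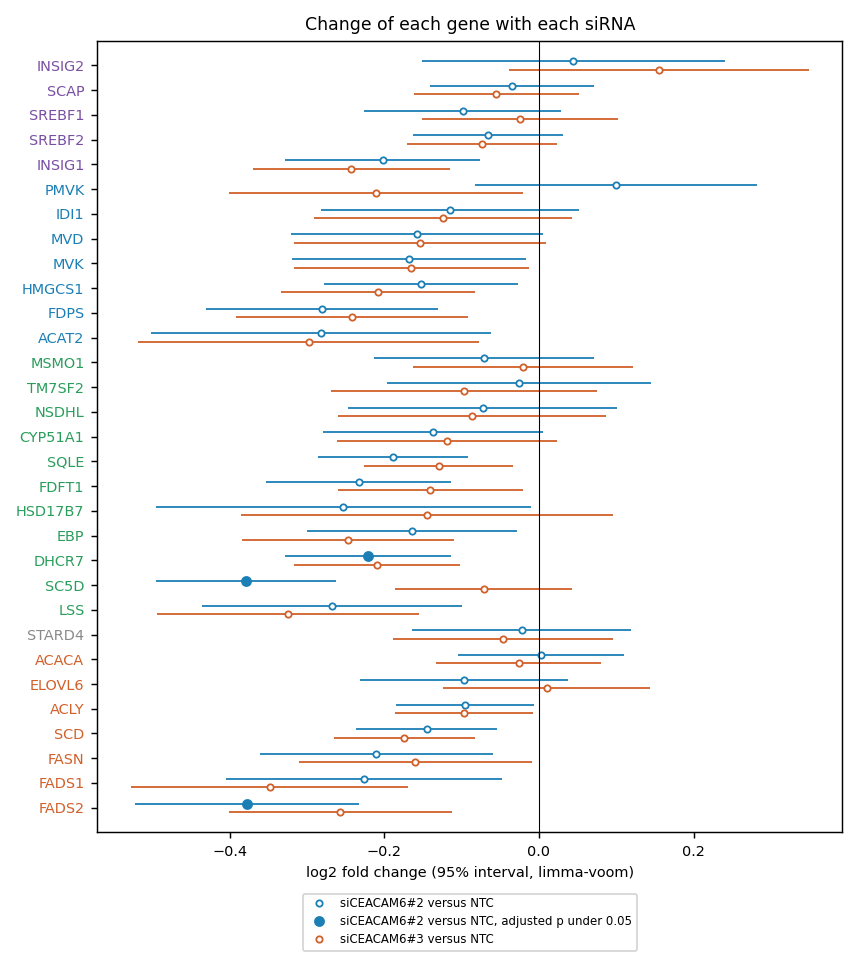
Log2 fold change of each gene against NTC with siCEACAM6#2 (blue) and siCEACAM6#3 (orange), with 95% intervals from limma-voom; filled points had an adjusted p under 0.05, and the colour of a gene name gives its group as in the plot of levels. Most points lie to the left of 0 with either siRNA, and the 3 filled points are SC5D, DHCR7 and FADS2 with siCEACAM6#2.

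The genes of the transcription factors themselves were close to their NTC levels. None of the 5 regulators was called by limma-voom in any comparison, and their median log2 fold change was -0.07 with siCEACAM6#2 and -0.06 with siCEACAM6#3. SREBF1 (chromosome 17 at 17810399 to 17837002), which encodes the SREBP mainly tied to fatty acid synthesis, was at 254, 225, 239 and 229 CPM in NTC. It was at 239, 205, 211 and 231 CPM with siCEACAM6#2 and at 234, 222, 224 and 251 CPM with siCEACAM6#3, and all 3 groups overlapped. SREBF2 (chromosome 22 at 41833105 to 41907306), whose product mainly drives sterol synthesis, was at 232, 220, 224 and 233 CPM in NTC. It was at 218, 209, 214 and 228 CPM with siCEACAM6#2 and at 215, 217, 206 and 227 CPM with siCEACAM6#3. The 95% interval of its log2 change ran from -0.16 to 0.03 with siCEACAM6#2 and from -0.17 to 0.02 with siCEACAM6#3.

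Of the 5 regulators, INSIG1 had the lowest values relative to NTC. INSIG1 (chromosome 7 at 155297776 to 155310235) was at 47.9, 48.7, 55.2 and 55.1 CPM in NTC. It was at 43.7, 44.7, 46.0 and 45.1 CPM with siCEACAM6#2 and at 43.1, 42.3, 46.5 and 42.6 CPM with siCEACAM6#3. All 8 siRNA samples were below all 4 NTC samples. Its log2 change was -0.20 ± 0.06 with siCEACAM6#2 and -0.24 ± 0.06 with siCEACAM6#3 (SE), and it missed the threshold in both (adjusted p = 0.118 and 0.138 by limma-voom). DESeq2 called INSIG1 lower with siCEACAM6#2, with siCEACAM6#3 and for both, where it called 1.51%, 0.573% and 0.851% of all tested genes lower. INSIG2, its paralogue, was on the other side of 0 with both siRNAs (0.04 and 0.15), without passing the test. SCAP ranged from 105 to 119 CPM over the 12 samples, with log2 changes of -0.03 and -0.06.

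The 7 genes of the mevalonate steps lay below NTC in 6 cases with siCEACAM6#2 and in 7 with siCEACAM6#3, with medians of -0.16 and -0.21 on the log2 scale. None was called by limma-voom in any comparison. Against NTC, DESeq2 called FDPS lower with siCEACAM6#2, and FDPS and HMGCS1 for both siRNAs. Over all tested genes DESeq2 called 1.51% and 0.851% lower in these comparisons. FDPS, chromosome 1 at 155308748 to 155320666, had the highest level of the 7 genes. Its NTC samples were at 132, 146, 144 and 139 CPM, its siCEACAM6#2 samples at 126, 113, 107 and 116 CPM and its siCEACAM6#3 samples at 129, 104, 113 and 131 CPM. NTC replicate 1 was close to the highest siRNA samples, yet the groups did not overlap. Its log2 change of -0.28 ± 0.07 with siCEACAM6#2 and -0.24 ± 0.07 with siCEACAM6#3 (SE) had adjusted p of 0.0656 and 0.184 by limma-voom. ACAT2, the cytosolic acetyl-CoA acetyltransferase of the first step (chromosome 6 at 159762045 to 159779112), had the largest change of the group for both siRNAs together. It was at 37.5, 38.0, 35.3 and 33.8 CPM in NTC. It was at 34.6, 28.7, 25.4 and 30.7 CPM with siCEACAM6#2 and at 35.5, 24.1, 31 and 27.8 CPM with siCEACAM6#3. Replicate 1 of each siRNA lay within the NTC range, and the log2 changes of -0.28 ± 0.10 and -0.30 ± 0.10 (SE) did not pass the test (adjusted p = 0.228 and 0.256 by limma-voom).

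The other mevalonate genes had smaller differences. HMGCS1, which makes HMG-CoA, ran from 48.7 to 52.6 CPM in NTC, from 42.0 to 47.8 with siCEACAM6#2 and from 41.5 to 46.6 with siCEACAM6#3. Mevalonate kinase, MVK, and mevalonate diphosphate decarboxylase, MVD, had log2 changes from -0.17 to -0.15 with both siRNAs, and siCEACAM6#3 replicate 4 lay above the NTC range for both (59.7 CPM for MVK and 71.7 CPM for MVD). IDI1, the isopentenyl diphosphate isomerase, was at -0.11 and -0.12. PMVK, phosphomevalonate kinase, was the one gene of the group above 0 with siCEACAM6#2 (0.10) and was at -0.21 with siCEACAM6#3. The difference between the siRNAs for PMVK was -0.31 on the log2 scale and was not called (adjusted p = 0.102 by limma-voom), though DESeq2 called it, against 1.28% of all tested genes called lower by that tool. Its samples ran from 17.7 to 19.4 CPM with siCEACAM6#2 and from 12.1 to 16.9 CPM with siCEACAM6#3, so the siRNA groups did not overlap, which held in the same direction for 3.34% of all tested genes.

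All 11 genes of the squalene and sterol steps were below NTC with each siRNA, with median log2 changes of -0.19 and -0.13. By limma-voom, SC5D and DHCR7 were called lower with siCEACAM6#2 and none was called with siCEACAM6#3. DESeq2 called SC5D, DHCR7, FDFT1 and SQLE lower with siCEACAM6#2, against 1.51% of all tested genes. With siCEACAM6#3 it called DHCR7, EBP and LSS lower, against 0.573%. For both siRNAs it called SC5D, DHCR7, FDFT1, SQLE, EBP and LSS lower, against 0.851%. FDFT1 was the most abundant of the 11 genes. It was at 257, 274, 284 and 286 CPM in NTC, at 242, 232, 226 and 235 CPM with siCEACAM6#2 and at 237, 237, 246 and 279 CPM with siCEACAM6#3. Only siCEACAM6#3 replicate 4 lay within the NTC range. Its log2 change was -0.23 ± 0.06 with siCEACAM6#2 (SE, adjusted p = 0.0552 by limma-voom) and -0.14 ± 0.06 with siCEACAM6#3. LSS, which closes squalene epoxide into lanosterol (chromosome 21 at 46188141 to 46228824), had the largest change of the group for both siRNAs together. It was at 32.7, 33.3, 33.3 and 32.2 CPM in NTC, at 31, 26.3, 24.8 and 27.4 CPM with siCEACAM6#2 and at 27.6, 23.3, 24.7 and 29.8 CPM with siCEACAM6#3. No siRNA sample reached the NTC range. Its log2 change was -0.27 ± 0.08 and -0.33 ± 0.08 (SE) with adjusted p of 0.120 and 0.138 by limma-voom.

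DHCR7, the 7-dehydrocholesterol reductase that catalyses the last step to cholesterol (chromosome 11 at 71428193 to 71452868), fell with siCEACAM6#2. Its NTC samples were at 213, 205, 212 and 206 CPM. They were at 189, 175, 175 and 177 CPM with siCEACAM6#2 and at 184, 173, 171 and 196 CPM with siCEACAM6#3, all below NTC. The log2 change was -0.22 ± 0.05 with siCEACAM6#2 (SE, adjusted p = 0.0431 by limma-voom) and -0.21 ± 0.05 with siCEACAM6#3 (SE, adjusted p = 0.134 by limma-voom). The difference between the siRNAs was 0.01, with a 95% interval from -0.10 to 0.12. The call for siCEACAM6#2 was close to the threshold. It was lost without any 1 NTC sample, without siCEACAM6#2 replicate 2, 3 or 4 and without siCEACAM6#3 replicate 3, with adjusted p by limma-voom reaching 0.169.

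SC5D, the lathosterol oxidase 1 step before DHCR7 (chromosome 11 at 121292681 to 121313410), was the one gene of the 31 called between the siRNAs by limma-voom. It was at 67.3, 69.4, 67.6 and 67.3 CPM in NTC. It was at 54.5, 49.9, 52.2 and 52.4 CPM with siCEACAM6#2, and at 64.3, 60.2, 70.8 and 63.6 CPM with siCEACAM6#3. The siCEACAM6#2 samples were below all the others, while the siCEACAM6#3 samples overlapped NTC through replicate 3. Its log2 change was -0.38 ± 0.05 with siCEACAM6#2 (SE, adjusted p = 0.00434 by limma-voom), a fall to 76.9% of NTC. With siCEACAM6#3 it was -0.07 ± 0.05 (SE, adjusted p = 0.614 by limma-voom). The calls against NTC and between the siRNAs both held in all 12 fits that left out 1 sample, with adjusted p by limma-voom of at most 0.0231 and 0.0441. On both log2 TPM scales neither call held (adjusted p by limma up to 0.0609 against NTC and 0.157 between the siRNAs), and the call between the siRNAs was also lost in a limma-voom fit of only the groups compared (adjusted p = 0.0699).

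The remaining enzymes of the sterol steps had log2 changes between -0.25 and -0.02. SQLE, squalene epoxidase, was at 70.2 to 74.4 CPM in NTC, at 62.7 to 64.0 CPM with siCEACAM6#2 and at 63.3 to 67.5 CPM with siCEACAM6#3, without overlap with NTC. EBP, the sterol isomerase, changed by -0.16 and -0.25. HSD17B7, a sterol ketoreductase, changed by -0.25 and -0.14. CYP51A1, the lanosterol demethylase, changed by -0.14 and -0.12, each without passing the test by limma-voom. TM7SF2, MSMO1 and NSDHL, which act between lanosterol and zymosterol, stayed between -0.10 and -0.02 and overlapped NTC with both siRNAs. STARD4, which carries cholesterol between membranes (chromosome 5 at 111496033 to 111512590), was at 58.0, 59.2, 57.8 and 66.9 CPM in NTC. It was at 58.3, 60.9, 61.4 and 57.3 CPM with siCEACAM6#2 and at 57.2, 63.7, 61.4 and 52.1 CPM with siCEACAM6#3. Its log2 change was -0.02 ± 0.07 and -0.05 ± 0.07 (SE), and either sign turned without NTC replicate 4 (0.03 and 0.00).

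**Figure D3:**
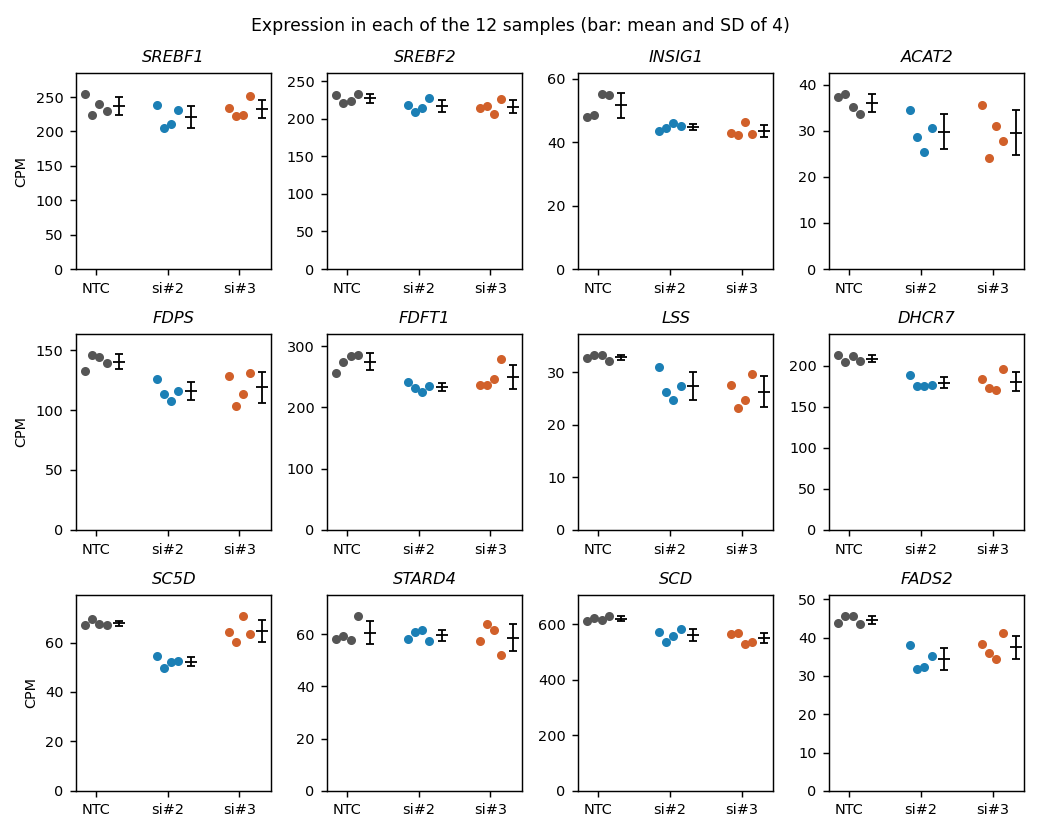
CPM of the 12 named genes in each sample, with NTC in grey, siCEACAM6#2 in blue and siCEACAM6#3 in orange; the black bar beside each group is the mean and SD of 4 samples, and every axis starts at 0. SC5D is low with siCEACAM6#2 alone (49.9 to 54.5 CPM), FADS2, LSS, SCD, DHCR7, FDPS and INSIG1 are below NTC in all 8 siRNA samples, and SREBF1, SREBF2 and STARD4 overlap.

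Among the 7 fatty acid genes, 6 lay below 0 with each siRNA, with medians of -0.15 and -0.16 on the log2 scale. FADS2, a desaturase of polyunsaturated fatty acids (chromosome 11 at 61792980 to 61867354), was called lower with siCEACAM6#2 and in the average of both siRNAs. It was at 43.8, 45.6, 45.7 and 43.6 CPM in NTC, at 38.2, 31.9, 32.5 and 35.2 CPM with siCEACAM6#2 and at 38.3, 35.9, 34.3 and 41.2 CPM with siCEACAM6#3. No siRNA sample reached the NTC range. Its log2 change was -0.38 ± 0.07 with siCEACAM6#2 (SE, adjusted p = 0.0136 by limma-voom) and -0.26 ± 0.07 with siCEACAM6#3 (SE, adjusted p = 0.156 by limma-voom). For the average of both it was -0.32 ± 0.06 (SE, adjusted p = 0.0332 by limma-voom). The call with siCEACAM6#2 did not hold when replicate 1, 2 or 3 of NTC or replicate 2 or 3 of siCEACAM6#2 was left out, where the adjusted p by limma-voom reached 0.0750. The call for the average held in 3 of 12 such fits, those without replicate 1 of either siRNA or without siCEACAM6#3 replicate 4, and elsewhere the adjusted p by limma-voom reached 0.167. By DESeq2, FADS2 was called lower with siCEACAM6#2, with siCEACAM6#3 and for both, against 1.51%, 0.573% and 0.851% of all tested genes.

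FADS1, the neighbouring desaturase, had values in the same direction. It ran from 169 to 184 CPM in NTC, from 135 to 165 CPM with siCEACAM6#2 and from 123 to 169 CPM with siCEACAM6#3. Its log2 changes of -0.23 and -0.35 were not called (adjusted p = 0.233 and 0.134 by limma-voom). DESeq2 called FADS1 lower with siCEACAM6#3 and for both siRNAs, where it called 0.573% and 0.851% of all tested genes lower. FADS1 (chromosome 11 at 61799627 to 61829318) overlaps FADS2 on the opposite strand in the annotation. Whether the counting used strand is not given in the sources used here, and overlap of their exons was not checked. Sharing of reads between the genes was not tested.

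SCD, which puts the double bond into stearoyl-CoA (chromosome 10 at 100347233 to 100364826), was at 612, 623, 615 and 629 CPM in NTC. It was at 572, 534, 556 and 581 CPM with siCEACAM6#2 and at 564, 569, 529 and 536 CPM with siCEACAM6#3. Every siRNA sample was below every NTC sample. The log2 changes of -0.15 ± 0.04 and -0.17 ± 0.04 (SE) had adjusted p of 0.120 and 0.138 by limma-voom. SCD was called lower by DESeq2 with siCEACAM6#2, with siCEACAM6#3 and for both, against 1.51%, 0.573% and 0.851% of all tested genes. FASN changed by -0.21 and -0.16, and siCEACAM6#3 replicate 4 (663 CPM) lay within its NTC range of 629 to 675 CPM. ACLY, which makes cytosolic acetyl-CoA from citrate, was at -0.10 with each siRNA. The acetyl-CoA carboxylase gene ACACA was at 0.00 and -0.03 with 95% intervals within -0.13 and 0.11, and the elongase gene ELOVL6 at -0.10 and 0.01.

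The siRNA samples of 1 group did not all shift by the same amount. The median over the 31 genes of the log2(CPM + 1) difference from the NTC mean was -0.08, -0.20, -0.16 and -0.10 in the siCEACAM6#2 samples. It was -0.08, -0.22, -0.15 and -0.09 in the siCEACAM6#3 samples and between -0.01 and 0.02 in the NTC samples. Over all tested genes the same median lay between -0.01 and 0.00 in every sample. Replicate 1 of siCEACAM6#2 was the highest sample of its group for 19 of the 31 genes, and replicate 4 of siCEACAM6#3 for 14. Replicate 2 of siCEACAM6#3 was the lowest of its group for 14 genes and replicate 2 of siCEACAM6#2 for 13.

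**Figure D4:**
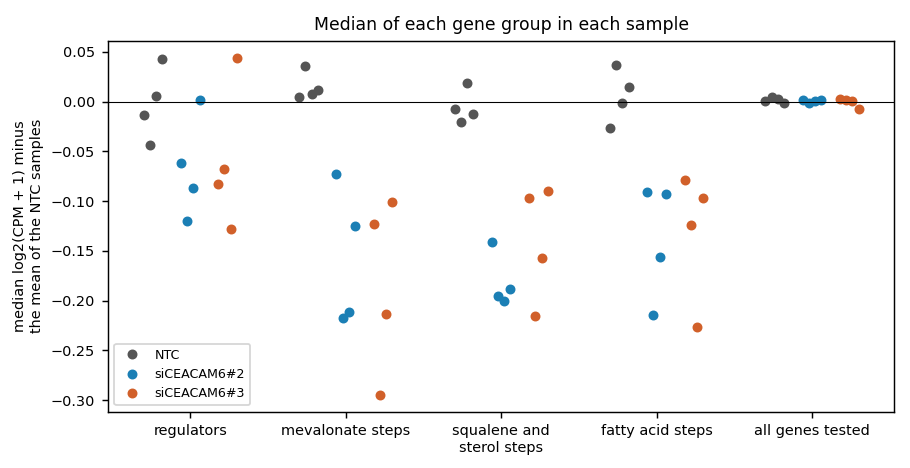
Median over the genes of each group of the log2(CPM + 1) difference from the NTC mean, 1 point per sample, with all tested genes at the right. For the 3 groups of enzymes every siRNA sample is below every NTC sample, the regulators overlap, and the medians of all tested genes lie between -0.01 and 0.00.

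In the direct comparison of the siRNAs, limma-voom called 1 of the 31 genes and DESeq2 called 2, SC5D and PMVK. SC5D was higher with siCEACAM6#3 than with siCEACAM6#2 by 0.31 ± 0.06 on the log2 scale (SE, adjusted p = 0.0112 by limma-voom). Over all tested genes 0.84% were called higher and 0.63% lower by limma-voom in this comparison, and none of the 31 was called lower by it. The median difference of the 31 genes was 0.00, with 16 of them below 0. After SC5D and PMVK, the next differences in size were -0.12 for FADS1 and 0.12 for FADS2.

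Of 78 other genes of the pathway in 6 lists, 76 were tested, and 3 were called lower with siCEACAM6#2, none with siCEACAM6#3 and none for both together by limma-voom. Over all tested genes the shares called lower were 0.641%, 0.017% and 0.0908%. Among 10 genes of SREBP processing and sterol-regulated degradation, SPRING1, a factor for SREBP cleavage in the Golgi, was the only one called. It was at 96.7, 93.5, 89.9 and 89.0 CPM in NTC, at 77.2, 69.1, 79.6 and 79.5 CPM with siCEACAM6#2 and at 90.6, 97.6, 90.0 and 85.6 CPM with siCEACAM6#3. Its log2 change with siCEACAM6#2 was -0.27 ± 0.06 (SE, adjusted p = 0.0299 by limma-voom), and it differed between the siRNAs by 0.25 ± 0.06 (SE, adjusted p = 0.0394 by limma-voom). SPRING1 was thus, like SC5D, low with siCEACAM6#2 and within or near the NTC range with siCEACAM6#3. Among 24 other lipogenic genes, the acyl-CoA synthetase genes ACSL1 and ACSL4 were called lower with siCEACAM6#2, by -0.22 and -0.35 on the log2 scale (adjusted p = 0.0413 and 0.0299 by limma-voom). ACSL4 was at 43.7 to 45.9 CPM with siCEACAM6#2, at 53.5 to 59.9 CPM in NTC and at 56.7 to 73.8 CPM with siCEACAM6#3, and the siRNAs differed by 0.52 ± 0.07 (SE, adjusted p = 0.00242 by limma-voom). The 3 calls against NTC were lost without any 1 NTC sample and without siCEACAM6#2 replicate 2, 3 or 4, and that of ACSL1 also without siCEACAM6#2 replicate 1 or siCEACAM6#3 replicate 3, with adjusted p by limma-voom up to 0.161. The difference between the siRNAs held in all 12 such fits for ACSL4 (adjusted p of at most 0.0151 by limma-voom). For SPRING1 it was kept only without NTC replicate 1 or siCEACAM6#3 replicate 1 or 4, and the adjusted p by limma-voom otherwise reached 0.118.

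The other 4 lists held no call by limma-voom in any comparison: 9 genes of the isoprenoid branch, 10 of sterol trafficking and esterification, 7 of LXR and efflux and 16 of fatty acid oxidation. Their median log2 changes lay between -0.03 and 0.04 in the comparisons with NTC. For the isoprenoid branch, which leaves the sterol route at farnesyl pyrophosphate, the median was 0.00 with each siRNA. For fatty acid oxidation it was 0.01 and -0.03.

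The libraries were alike in depth, with total estimated counts from 21799476 to 22059456 per sample. The share of counts from mitochondrial genes was highest with siCEACAM6#3 (12.5% to 15.3%), next to 12.2% to 13.3% in the siCEACAM6#2 samples and 11.8% to 12.9% in the controls. Their part in the results was not tested beyond a fit without mitochondrial genes, which left 3, 0 and 1 of the 31 genes called with siCEACAM6#2, siCEACAM6#3 and both. GBC arises from epithelium, and epithelial markers (6 genes) summed to 8214 to 10150 CPM over the 12 samples. Markers of fibroblasts (5 genes) summed to 7.98 to 12.7 CPM, of endothelium (3 genes) to 8.62 to 14.2 CPM and of leukocytes (4 genes) to 26.5 to 54.7 CPM, most of it CD68 (26.3 to 54.0 CPM), and hepatocyte markers (4 genes) to at most 0.223 CPM. Pseudogenes named after the genes took few reads: HSD17B7P2 was at 6.38% of HSD17B7 and the rest at 0.0242% or less of their parent gene.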

How the data were processed

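Polyadenylated RNA of 12 SNU308 samples was captured on oligo dT and read on a DNBSEQ platform. Per the labels the reads were strand-specific and paired-end and the reagent was Oligofectamine, while the methods of the study give RNAiMAX and single-end reads. Per the methods, the authors trimmed with trim_galore 0.6.4 and quantified with kallisto against GENCODE transcripts of GRCh38.p13 (the version in the labels' processing notes, 0.4.6, differs from that in the methods). The GENCODE release and the summing to genes are not given in the sources used here. The values deposited by the authors were unscaled estimated counts for each gene, 69.3% of those above 0 not whole, because kallisto divides shared reads by estimation. They also deposited TPM values per gene.

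Gene names and coordinates came from GENCODE 44 on GRCh38 (60357 of 60617 identifiers matched, 99.6%). Counts were rounded and fitted on the whole table in R 4.3.3 with limma 3.58.1 (voom) and edgeR 4.0.16, after filterByExpr by group (17620 genes, 99.9% of counts) and TMM scaling, with 1 mean for each of the 3 groups. P-values were adjusted by Benjamini-Hochberg over all tested genes within a contrast, and a gene was called under 0.05. DESeq2 1.42.0 was among the alternatives. The procedure was tested on simulated counts with planted changes larger than those of the 31 genes. That run therefore does not show how well changes of their size are detected. Named genes were those called in any contrast, SREBF1, SREBF2, INSIG1, the gene with the highest TPM and the one with the largest change for both siRNAs in each group, the target, and called genes of 6 further lists. The 31 genes, the lists and the tests were chosen with earlier results of these data known. Some genes of the pathway are not reported here.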

Additional observations from a re-analysis of the deposited data

Results flagged for a closer look

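Within the groups of 4 samples, 96 sets of values (the 31 genes and CEACAM6 in 3 groups) were checked for a sample far from the rest, and 6 stood out by Dixon's ratio at its critical value, where chance alone gives about 1 in 20. MVK and MVD were both highest in siCEACAM6#3 replicate 4, at 59.7 CPM against 46.0 to 47.9 CPM and at 71.7 CPM against 54.9 to 56.6 CPM in the other 3 samples, in the library that also had the highest counts of LYZ, PTPRC and CD3E. HMGCS1 was lowest in siCEACAM6#2 replicate 2, at 42.0 CPM against 47.2 to 47.8 CPM. DHCR7 was highest in siCEACAM6#2 replicate 1, at 189 CPM against 175 to 177 CPM. In NTC, SC5D was highest in replicate 2, at 69.4 CPM against 67.3 to 67.6 CPM, and STARD4 in replicate 4, at 66.9 CPM against 57.8 to 59.2 CPM.

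In 3 genes the effects of the siRNAs differed by a direct test of siCEACAM6#3 against siCEACAM6#2 (limma-voom, Benjamini-Hochberg). The log2 difference was 0.31 for SC5D (adjusted p = 0.0112), 0.52 for ACSL4 (adjusted p = 0.00242) and 0.25 for SPRING1 (adjusted p = 0.0394). In SC5D and SPRING1 the siCEACAM6#2 samples were all below NTC while the siCEACAM6#3 samples overlapped it, and in ACSL4 the siCEACAM6#3 samples reached above it.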

How the results depend on the processing

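The direction of the pathway held while the number of calls did not. The median log2 fold change of the 31 genes stayed between -0.18 and -0.12 with siCEACAM6#2 and with siCEACAM6#3 under all 24 alternatives, and between -0.18 and -0.14 for both together. With siCEACAM6#2, where 3 of the 31 genes were called, 8 were called by DESeq2, 5 without the filter, 6 with at least 1 CPM in all samples, 13 with sample weights, 10 with only the groups compared and 0 on log2(TPM + 1) or log2(TPM + 0.1). Over all genes the calls were 221 as reported, and 534, 160, 286, 1120, 600, 5 and 6 under these settings. With siCEACAM6#3, where 0 were called, DESeq2 gave 7, no filter 1 and sample weights 8, while over all genes the calls went from 12 to 220, 24 and 382. For both siRNAs, where 1 was called, DESeq2 gave 12, library size alone 2, no filter 3, at least 1 CPM 3, sample weights 16, and the TPM scales or only the groups compared 0, while over all genes the calls went from 40 to 332, 53, 45, 75, 899, 2, 7 and 11. Between the siRNAs, where 1 was called, DESeq2 and sample weights gave 2, and the TPM scales and only the groups compared 0, while over all genes the calls went from 259 to 556, 560, 49, 53 and 57. EdgeR's quasi-likelihood test, DESeq2 size factors and leaving out mitochondrial genes stayed within 1.5 times of each of these counts. Leaving out 1 sample gave 1 to 6 calls with siCEACAM6#2, the lowest when replicate 1, 2 or 3 of NTC or replicate 2 or 3 of siCEACAM6#2 was absent and the highest without siCEACAM6#3 replicate 2 or 4. It gave 0 or 1 with siCEACAM6#3 (1 without replicate 1 or 4 of that siRNA), 0 to 8 for both siRNAs (8 without siCEACAM6#3 replicate 4) and 1 or 2 between the siRNAs. Fewer samples were fitted there. Otherwise the cause was not tested.

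Of the other pathway genes, 3 were called with siCEACAM6#2, against 6 by DESeq2, 1 without the filter, 0 on either TPM scale, 12 with sample weights and 5 with only the groups compared, and 0 to 4 without 1 sample. DESeq2 and sample weights each gave 1 with siCEACAM6#3 (0 in the reported fit), and 2 and 10 for both siRNAs (0 in the reported fit), and leaving out 1 sample gave 0 or 1 in each. Between the siRNAs 2 were called, against 1 by library size alone, without the filter, on log2(TPM + 0.1), with the replicate block or with only the groups compared, 0 on log2(TPM + 1), and 1 to 3 without 1 sample. CEACAM6 differed between the siRNAs by 0.33 on log2(TPM + 1) and on log2(TPM + 0.1) and by 0.36 with only the groups compared, in each case short of the threshold, and by 0.29 to 0.39 without 1 sample, while its change with siCEACAM6#3 then ranged from -0.50 to -0.43.

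Signs turned only in small differences that were not called. Between the siRNAs, the log2 difference of DHCR7 was -0.00791 with library size alone, -0.0020 on both TPM scales and -0.016 with sample weights, and with sample weights that of ACAT2 was 0.064 and that of STARD4 0.011. Without 1 sample, the differences between the siRNAs ran from -0.031 to 0.040 for DHCR7, from -0.033 to 0.015 for SREBF2, from -0.0099 to 0.10 for FDPS, from -0.11 to 0.077 for ACAT2, from -0.12 to 0.0046 for LSS and from -0.066 to 0.028 for STARD4. Against NTC they ran from -0.063 to 0.014 for SREBF1 and from -0.056 to 0.0056 for SPRING1 with siCEACAM6#3, and for STARD4 from -0.040 to 0.028 with siCEACAM6#2, from -0.088 to 0.0072 with siCEACAM6#3 and from -0.055 to 0.016 for both.

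Over all tested genes, samples with the same replicate number deviated together weakly or not at all (Pearson's r from -0.06 to 0.22 over 12 pairs). Pairs with different numbers ran from -0.25 to 0.18. The 2 pairs above 0.1 joined the siRNA groups, at replicate 1 (0.22) and replicate 2 (0.13). The median differences of the 31 genes from NTC were close by number. In order they were -0.08, -0.20, -0.16 and -0.10 with siCEACAM6#2 and -0.08, -0.22, -0.15 and -0.09 with siCEACAM6#3. The numbers were not taken to pair the samples, and a shared source was not tested. A fit with the replicate number as a block gave 4 of the 31 genes called with siCEACAM6#2, 1 with siCEACAM6#3, 3 for both and 1 between the siRNAs.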
